A study of Citrus maxima with 12 samples.

Results

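A set of 275 genes had mean levels at least 2-fold lower in diseased than in control pomelo fruit in both cultivars studied, Jinlan and Jinsha. They were chosen from 32863 listed genes by the log2 ratio of the group means, diseased over control, after adding 1 FPKM to each mean. FPKM divides the fragments sequenced from a transcript by its length and by the library's size. The ratio had to be -1 or lower in each cultivar, and the highest of the 4 group means had to reach 3 FPKM. Because these means chose the genes, the difference between diseased and control fruit is given as a description, and nothing is supported with a test of it.

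Messenger RNA was sequenced from pomelo fruit (Citrus maxima, the citrus with the biggest fruit) in 12 libraries, and the 17120 genes that reached 1 FPKM in at least 3 of them were tested. The groups of 3 libraries each were diseased Jinlan, control Jinlan, diseased Jinsha and control Jinsha fruit, where disease is the yellow spot disease named in the study's title. The labels give neither the causal agent nor the part of the fruit, the stage of ripening or the time of sampling. They number 3 samples per group but do not name the fruit or tree behind each, so the p-values cover how these samples vary, and that variation may be technical.

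Plants that meet a pathogen commonly change the levels of many transcripts, raising those of defence and lowering others, such as those of growth and photosynthesis. A transcript's level in a tissue falls when it is made more slowly, when it decays faster or when the cells that hold it become fewer. In these bulk fruit samples fewer cells of a type and less RNA per cell cannot be told apart. The identifiers were paired with no gene name or product, so no role is given for any gene, and the fruit label could not be checked against marker genes.

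By the median over these genes, 1 library lay furthest from the mean of its group. In Jinlan control replicate 3, 251 of the 275 genes lay below the mean of the 3 control Jinlan libraries on the log2(FPKM + 1) scale, towards the diseased level. Replicates 1 and 2 of the same group had 88 and 55 genes below that mean. In percent these were 91.3% of the set in replicate 3 and 32.0% and 20.0% in replicates 1 and 2. Over all genes tested it was 58.1% in replicate 3 and 41.2% and 48.9% in replicates 1 and 2. The choice of genes changed little without replicate 3: leaving out this Jinlan control library gave 287 genes, 274 of them from the 275. Jinsha disease replicate 1 also departed from the genes tested. There 33.5% of the set lay below the mean of the diseased Jinsha libraries, beside 65.1% of all genes tested. Leaving out that library gave 288 genes, 270 of them from the 275.

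The level of the 275 genes together was lower in every diseased library than in every control library. They held 1.63%, 1.70% and 2.20% of the summed FPKM of the diseased Jinlan libraries 1 to 3, against 6.57%, 6.75% and 6.0% in control Jinlan libraries 1 to 3. In Jinsha they held 1.79%, 1.61% and 1.55% in diseased libraries 1 to 3 and 5.87%, 6.22% and 6.39% in control libraries 1 to 3. The group means were 1.84 ± 0.309% in diseased and 6.44 ± 0.391% in control Jinlan fruit, and 1.65 ± 0.126% in diseased and 6.16 ± 0.263% in control Jinsha fruit (SD, n = 3 each). Since FPKM is relative within a library, these are shares of the measured transcripts and not amounts of RNA per fruit.

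**Figure D1:**
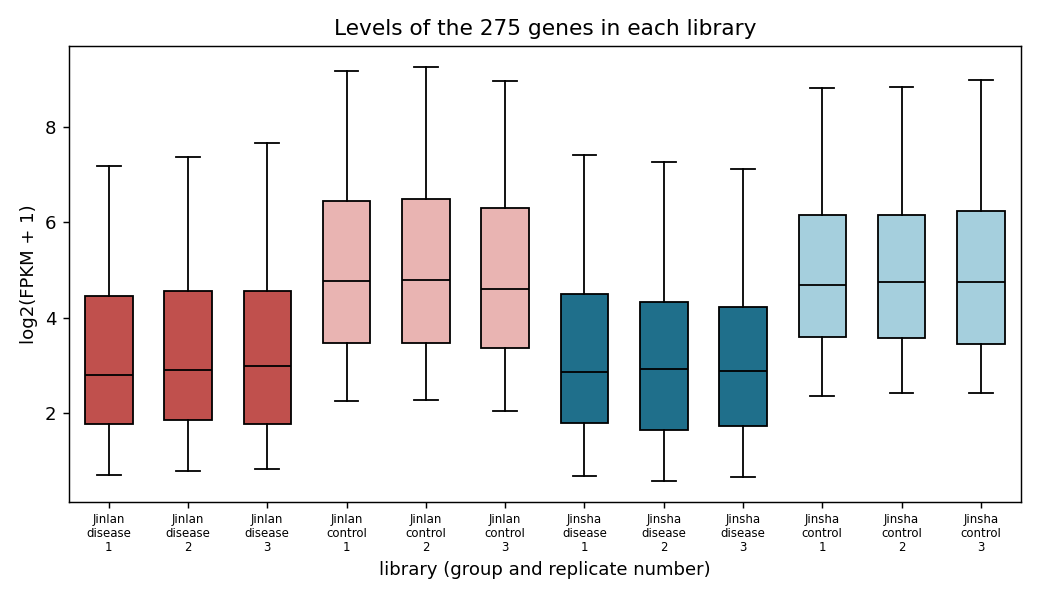
Levels of the 275 genes in each of the 12 libraries on the log2(FPKM + 1) scale (boxes: quartiles with the median; whiskers: the 5th and 95th percentiles). The medians of the 6 diseased libraries lie between 5.97 and 6.95 FPKM and those of the 6 control libraries between 23.1 and 26.7 FPKM before the log2 step.

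A few abundant genes carried much of this share. The 10 genes with the highest mean over the control libraries made up 46.8% of the set's summed FPKM in diseased libraries and 48.6% in control libraries. Cg5g030100 and Cg8g000800 were the most abundant. Cg5g030100 was at 544, 572 and 839 FPKM in diseased Jinlan libraries 1 to 3, against 3717, 3502 and 3119 FPKM in control Jinlan libraries. In Jinsha Cg5g030100 was at 1165, 1171 and 1200 FPKM in diseased and at 3078, 3511 and 3481 FPKM in control libraries. The diseased Jinlan libraries of Cg5g030100 all lay below its diseased Jinsha libraries, while its control levels overlapped between the cultivars. Cg8g000800 was at 558, 558 and 971 FPKM in diseased and 2332, 2448 and 2236 FPKM in control Jinlan libraries. Its Jinsha values were 555, 618 and 568 FPKM in diseased and 2795, 2834 and 3332 FPKM in control libraries. For both genes Jinlan disease replicate 3 was the highest of its group. The same library held 1.2% of its FPKM in the 10 abundant genes, against 0.695% and 0.721% in Jinlan disease replicates 1 and 2. This library was not high for every gene: among the 60 genes with a control mean of at least 100 FPKM it was the highest diseased Jinlan library for 31 and the lowest for 20.

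The size of the difference varied widely. The log2 ratio, diseased over control, had a median of -1.60 in Jinlan (quartiles -2.01 and -1.25) and of -1.63 in Jinsha (quartiles -2.21 and -1.29). In Jinlan 71 genes had a ratio of -2 or lower and 11 of -3 or lower, and in Jinsha 87 and 20 genes did. Only 42 genes were at -2 or lower in both cultivars, and 4 at -3 or lower in both. Within the set the median ratio was closest to the threshold for genes with a control mean below 10 FPKM (62 genes, -1.33 in Jinlan and -1.55 in Jinsha). For the 153 genes with a control mean of 10 to 100 FPKM it was -1.64 in both cultivars, and for the 60 genes at 100 FPKM or more -1.70 in Jinlan and -1.75 in Jinsha. The added 1 FPKM pulls the ratio of low genes towards 0, so part of this order is set by the scale.

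**Figure D2:**
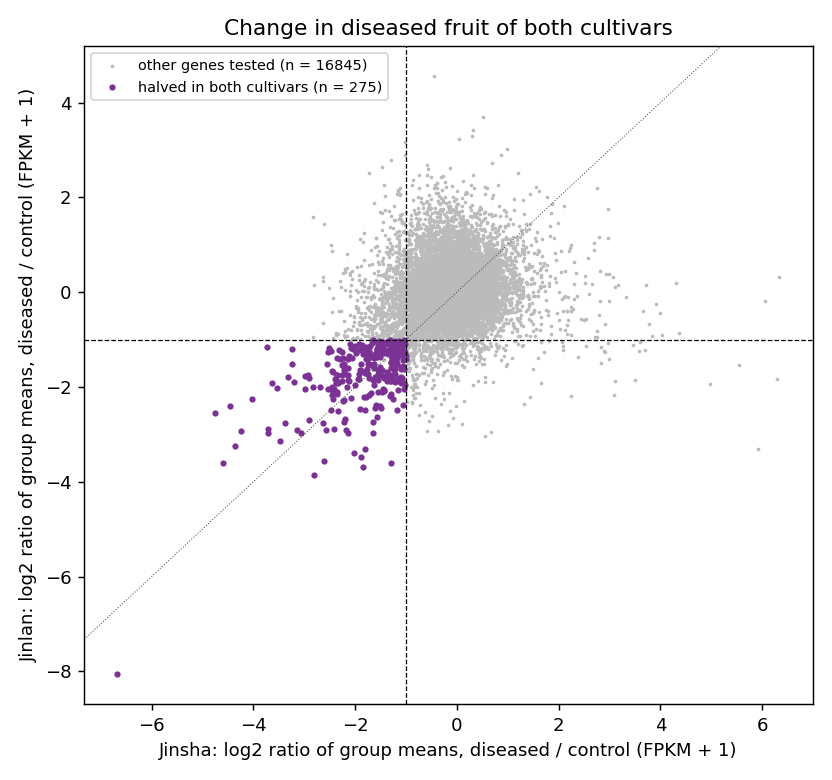
Log2 ratio of group means, diseased over control, with 1 FPKM added, in Jinsha (horizontal) and Jinlan (vertical) for 17120 genes tested. The 275 genes (purple) fill the corner below -1 on both axes (dashed lines), with Cg4g019170 alone at the lower left at -6.67 and -8.06, and the dotted line marks equal ratios.

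Cg4g019170 and Cg5g020680 had the deepest difference, judged by the cultivar in which it was shallower. Cg4g019170 was at 0.176 and 1.25 FPKM in diseased Jinlan replicates 1 and 2 and listed at 0 in replicate 3, against 451, 621 and 106 FPKM in control Jinlan libraries. In Jinsha Cg4g019170 was at 0.453 FPKM in diseased replicate 2 and listed at 0 in replicates 1 and 3, against 53.6, 54.9 and 241 FPKM in control libraries. Its control libraries thus differed several-fold among themselves in each cultivar, with Jinlan control replicate 3 the lowest and Jinsha control replicate 3 the highest of its group. Cg5g020680 was far more even: it was at 17.0, 20.1 and 23.3 FPKM in diseased and 252, 268 and 247 FPKM in control Jinlan libraries. Its Jinsha values were 20.7, 19.9 and 15.2 FPKM in diseased and 450, 450 and 510 FPKM in control libraries. The diseased levels of Cg5g020680 overlapped between the cultivars, although its control levels did not.

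Most genes kept a measurable level in diseased fruit. In all 6 diseased libraries 81 genes were still at 10 FPKM or more, and 10 genes were below 1 FPKM in all 6. At least 1 diseased library listed a value of 0 for 5 genes, no gene was listed at 0 in all 6, and 1 gene was listed at 0 in a control library. That gene, Cg5g030110, carries the identifier next to the most abundant one and was the least even of those looked at, a choice made after its values were seen. It was listed at 0 in diseased Jinlan replicates 1 and 2 and was at 0.166 FPKM in replicate 3, against 21.1 and 0.611 FPKM in control Jinlan replicates 1 and 2 and a listed 0 in control replicate 3. In Jinsha it was at 0.295 FPKM in diseased replicate 2 and listed at 0 in the others, against 4.6, 33.4 and 2.23 FPKM in control libraries. Without Jinlan control replicate 1 it would not be in the set.

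Diseased and control libraries did not overlap for 274 of the 275 genes in Jinlan, where 33.1% of all genes tested had every diseased library below every control library. In Jinsha this held for all 275, beside 33.9% of all genes tested. The exception in Jinlan was Cg5g030110. For 262 of the genes all 6 diseased libraries of both cultivars lay below all 6 control libraries, beside 7.94% of the genes tested. The limma fit, with an adjusted p below 0.05, called 273 lower in diseased Jinlan fruit, beside 30.3% of the genes tested, and 275 lower in diseased Jinsha fruit, beside 30.9%. All these counts follow from how the genes were chosen and are printed for orientation.

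The genes at the edge of the choice looked like those just outside. Cg3g021100, just inside in Jinsha at a log2 ratio of -1.0, had group means of 25.2 FPKM in diseased and 51.4 FPKM in control Jinsha fruit, and NewGene_923, just outside at -0.998, had 6.55 and 14.1 FPKM in the same order. In Jinlan Cg7g001070 lay just inside with 5.43 FPKM in diseased and 11.9 FPKM in control fruit, and Cg3g016580 just outside at -0.991 with 1.75 FPKM in diseased and 4.46 FPKM in control fruit. At the minimum level Cg5g003440 was the lowest gene taken, with a highest group mean of 3.16 FPKM, and Cg2g026390 was the highest left out, at 2.61 FPKM. The minimum left out 6 genes in all. A further 369 genes passed the ratio in Jinlan only and 600 in Jinsha only.

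The ratio of each gene was then set side by side in the cultivars. Both ratios had to be -1 or lower to enter the set, so genes with a weak or opposite ratio in either cultivar were left out. The ratios of a gene in Jinlan and in Jinsha differed by a median of 0.40 on the log2 scale. The ratio was deeper in Jinlan for 116 genes and deeper in Jinsha for 159. It was deeper by at least 1 in Jinlan for 14 genes and in Jinsha for 21. Across the 275 genes, Pearson's r between the ratios was 0.58 and Spearman's rho 0.43. Genes are not independent replicates and all points share the same 12 libraries, so these are descriptions of the set. Cg4g019170 lay far from the other genes, at -8.06 in Jinlan and -6.67 in Jinsha. Such a point weighs more on Pearson's r than on Spearman's rho.

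Cg8g023420 and Cg7g023010 had the largest excess of the difference in Jinlan. Cg8g023420 was at 2.33, 3.12 and 2.47 FPKM in diseased and 40.0, 46.2 and 42.8 FPKM in control Jinlan libraries, a log2 ratio of -3.60. The Jinsha values of Cg8g023420 were 2.14, 1.87 and 1.35 FPKM in diseased and 5.48, 6.47 and 5.67 FPKM in control libraries, a ratio of -1.30. Both diseased groups were thus low, while its control level in Jinlan was far above that in Jinsha. Cg7g023010 was at 4.61, 6.53 and 4.61 FPKM in diseased and 81.2, 86.5 and 71.8 FPKM in control Jinlan libraries. In Jinsha it was at 10.7, 10.3 and 10.8 FPKM in diseased and 39.7, 41.6 and 40.3 FPKM in control libraries. The order of the cultivars was therefore opposite in the 2 conditions for Cg7g023010, with Jinlan lower in diseased fruit and higher in control fruit.

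Cg2g032860 and Cg1g005260 had the largest excess in Jinsha. Cg2g032860 was at 78.9, 84.2 and 91.9 FPKM in diseased and 204, 198 and 173 FPKM in control Jinlan libraries, a ratio of -1.17. The Jinsha values of Cg2g032860 were 16.5, 17.4 and 15.4 FPKM in diseased and 241, 237 and 209 FPKM in control libraries, a ratio of -3.72. Its diseased levels were well apart between the cultivars, while its control levels were close. Cg1g005260 was at 4.52, 6.04 and 4.37 FPKM in diseased and 39.8, 29.8 and 31.7 FPKM in control Jinlan libraries. In Jinsha it was at 0.889, 0.899 and 1.48 FPKM in diseased and 54.4, 56.9 and 55.6 FPKM in control libraries. In diseased fruit Cg1g005260 was higher in Jinlan and in control fruit lower, with no overlap of the libraries in either condition.

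**Figure D3:**
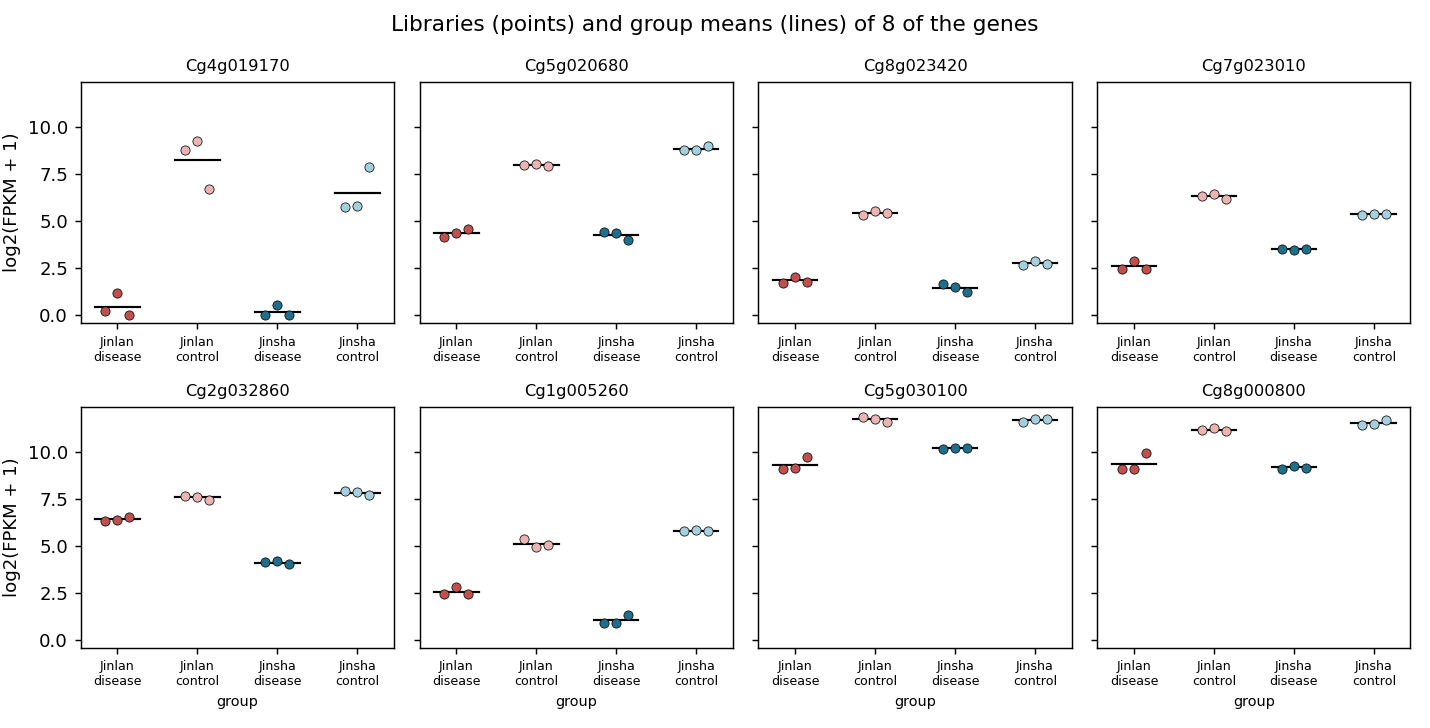
Log2(FPKM + 1) of 8 genes in the 12 libraries (points) with the mean of each group of 3 (lines). In each panel the diseased libraries lie below the control libraries of the same cultivar; Cg4g019170 shows the widest spread, with values listed at 0 in diseased fruit, and Cg2g032860 the largest gap between the diseased groups of the cultivars.

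Whether the cultivars differed in the level of these genes is a question the choice did not ask, since it compared diseased with control fruit within a cultivar. It was tested in the limma fit to all 12 libraries and all 17120 genes, though on the same libraries that chose the genes. In control fruit 206 of the 275 genes were called between Jinlan and Jinsha at an adjusted p below 0.05, or 74.9%, beside 57.9% of all genes tested. The share was 73.4% for genes halved in Jinlan only and 79.3% for those halved in Jinsha only. Each of these sets passed the ratio in 1 cultivar only, so a cultivar difference in it is not independent of its choice. For the 48 genes doubled in both cultivars the share was 56.2%. Levels differed too: the median control group mean was 25.7 FPKM in Jinlan and 25.9 FPKM in Jinsha, beside 11.2 and 12.6 FPKM over all genes tested. Of the 206 genes, 94 were higher in Jinlan (34.2%, beside 21.2% of all genes tested) and 112 lower (40.7%, beside 36.8%). A difference of at least 2-fold was called for 21 genes higher in Jinlan (7.64%, beside 2.02%) and 16 lower (5.82%, beside 2.96%). The median log2 difference, Jinlan minus Jinsha, was -0.08 over the set and -0.09 over all genes tested. The direction of this median and the balance of the calls depended on scaling: with median-ratio scaling of the libraries the median was 0.02, with 103 genes called higher and 93 lower in Jinlan. Without Jinlan control replicate 3, the library furthest from its group mean for these genes, the median was -0.03, with 96 genes called higher and 97 lower.

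In control fruit Cg8g023420 and Cg9g027520 were furthest above Jinsha in Jinlan. The log2 difference of Cg8g023420, whose libraries are given above, was 2.68 (SE 0.11, limma adjusted p = 4.55e-09). Cg9g027520 was at 30.9, 29.1 and 31.3 FPKM in control Jinlan libraries and 5.09, 5.61 and 5.76 FPKM in control Jinsha libraries, a difference of 2.28 (SE 0.08, limma adjusted p = 1.1e-09). Both genes had Jinlan and Jinsha libraries that did not overlap. Cg4g006650 and Cg5g022610 were furthest below. Cg4g006650 was at 41.2, 33.9 and 35.9 FPKM in control Jinlan libraries and 133, 144 and 146 FPKM in control Jinsha libraries, a difference of -1.91 (SE 0.15, limma adjusted p = 4.13e-07). In diseased fruit Cg4g006650 was at 10.9, 9.66 and 16.1 FPKM in Jinlan and 12.1, 16 and 14.1 FPKM in Jinsha, and it was not called there (difference -0.21, limma adjusted p = 0.219). Cg5g022610 was at 4.29, 5.38 and 3.76 FPKM in control Jinlan libraries and 14.7, 16.4 and 14.5 FPKM in control Jinsha libraries, a difference of -1.57 (SE 0.11, limma adjusted p = 1.71e-07).

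In diseased fruit 191 of the 275 genes were called between the cultivars, or 69.5%, close to the 67.3% of all genes tested. Here 104 genes were higher in Jinlan (37.8%, beside 28.6% of all genes tested) and 87 lower (31.6%, beside 38.7%). At 2-fold or more, 30 genes were higher in Jinlan (10.9%, beside 6.88%) and 16 lower (5.82%, beside 3.62%). The median log2 difference was 0.05 over the set and -0.07 over all genes tested. With quantile normalization the median of the set was -0.01, with 97 genes called higher and 90 lower, and with median-ratio scaling it was 0.13, with 110 higher and 78 lower. Without Jinlan disease replicate 3 or 2 it was 0.017 or 0.033, and without Jinsha disease replicate 2 or 3 it was 0.029 or 0.035.

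Among diseased libraries Cg6g001580 and Cg2g032860 were furthest above Jinsha in Jinlan. Cg6g001580 was at 54.3, 67.7 and 57.3 FPKM in diseased Jinlan libraries and 7.64, 10.1 and 9.76 FPKM in diseased Jinsha libraries, a difference of 2.58 (SE 0.12, limma adjusted p = 1.73e-09). It was also higher in control Jinlan fruit, at 224, 183 and 178 FPKM, than in control Jinsha fruit, at 57.4, 48.8 and 56.3 FPKM. The cultivar difference of Cg6g001580 was thus present in both conditions, whereas Cg2g032860 differed by 2.30 in diseased fruit (SE 0.08, limma adjusted p = 1.79e-10) and by -0.25 in control fruit (SE 0.08, limma adjusted p = 0.0164). Cg1g008560 and Cg5g036790 were furthest below. Cg1g008560 was at 49.7, 49.5 and 38.8 FPKM in diseased Jinlan libraries and 187, 193 and 167 FPKM in diseased Jinsha libraries, a difference of -1.97 (SE 0.11, limma adjusted p = 8.62e-09). Cg5g036790 was at 2.77, 3.04 and 2.53 FPKM in diseased Jinlan libraries and 11, 9.69 and 10.8 FPKM in diseased Jinsha libraries, a difference of -1.60 (SE 0.10, limma adjusted p = 3.47e-08).

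The order of the cultivars was mostly kept in diseased fruit. Of the 151 genes called between the cultivars in both conditions, 125 had the same direction (82.8%), 61 of them higher and 64 lower in Jinlan. Over all genes tested 7006 were called in both conditions and 65.3% of these had the same direction. A further 7 genes were lower in Jinlan in diseased fruit and higher in control fruit, as Cg7g023010 was, and 19 were higher in diseased fruit and lower in control fruit, as Cg1g005260 was. Over all 17120 genes tested these opposite orders were called for 1010 and 1422 genes. Neither condition gave a call for 29 genes of the set and for 2692 of all genes tested. Apart from the order of averaging and taking the log2, the change of the cultivar difference between the conditions is the difference of a gene's ratios. Both ratios were limited by the choice, so the share in the set is not independent of it. Pearson's r between the 2 differences was 0.56 across the 275 genes and 0.20 across all genes tested, with genes as the points.

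**Figure D4:**
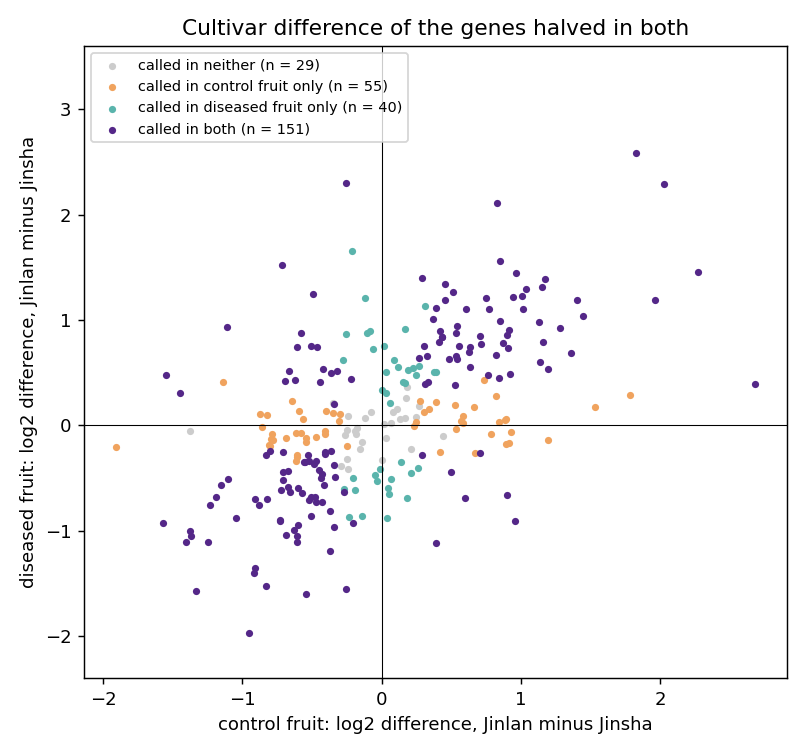
Log2 difference, Jinlan minus Jinsha, on the log2(FPKM + 1) scale in control fruit (horizontal) and diseased fruit (vertical) for the 275 genes, coloured by the limma call at an adjusted p below 0.05. Of the 151 genes called in both conditions (dark), 125 lie in the lower left or upper right of the plot.

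The cultivar that had the higher control level tended to have the deeper ratio. Among the 94 genes called higher in control Jinlan fruit the median ratio, diseased over control, was -1.75 in Jinlan and -1.53 in Jinsha, and 54 of them had the deeper ratio in Jinlan. Among the 112 called lower in control Jinlan fruit it was -1.50 in Jinlan and -1.72 in Jinsha, and 32 had the deeper ratio in Jinlan. The control libraries enter both measures, so they are not independent. The order of the 4 group means put both control groups above both diseased groups for 270 genes. For 101 of these the order was control Jinsha, control Jinlan, diseased Jinsha, diseased Jinlan, and for 99 it was control Jinlan, control Jinsha, diseased Jinlan, diseased Jinsha. In the other 5 genes a diseased group of one cultivar lay above the control group of the other, as in Cg6g001580.

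The spread between replicates was larger for these genes than over all genes tested. The spread is not independent of the choice, since a mean of 3 libraries can pass through 1 high value, as for Cg5g030110. Levels were not matched either: the median diseased group mean was 6.5 FPKM in both cultivars, beside 11.5 FPKM in Jinlan and 11.8 FPKM in Jinsha over all genes tested. The median SD of log2(FPKM + 1) was 0.13 in diseased Jinlan libraries and 0.12 in control Jinlan libraries, beside 0.084 and 0.088 over all genes tested. In Jinsha it was 0.16 in diseased and 0.11 in control libraries, beside 0.087 and 0.087. The genes halved in Jinlan only had 0.12 in diseased and 0.13 in control Jinlan libraries, and those halved in Jinsha only 0.13 in diseased and 0.12 in control Jinsha libraries. These medians were near those of the genes halved in both, except in diseased Jinsha libraries, where the set had 0.16 beside 0.13. The difference between the sets was not tested.

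Deviations within a group were shared by many of the genes. The median deviation of Jinlan control replicate 3 from its group mean was -0.10 on the log2(FPKM + 1) scale (quartiles -0.15 and -0.06), beside -0.02 over all genes tested. It was the lowest control Jinlan library for 55 of the 60 genes with a control mean of at least 100 FPKM and for 123 of the 153 genes at 10 to 100 FPKM, but for 37 of the 62 below 10 FPKM. In the same library the genes halved in Jinlan only had a median deviation of -0.12, those halved in Jinsha only one of -0.0035, and those doubled in both cultivars one of 0.26. The 3 sets chosen for a difference in Jinlan thus lay towards the diseased level in this control library, and the set chosen for one in Jinsha only lay near the group mean. In Jinsha, disease replicate 1 had a median deviation of 0.05 for the 275 genes, beside -0.03 over all genes tested, with replicates 2 and 3 at -0.04 and -0.05. What moved these libraries was not tested.

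**Figure D5:**
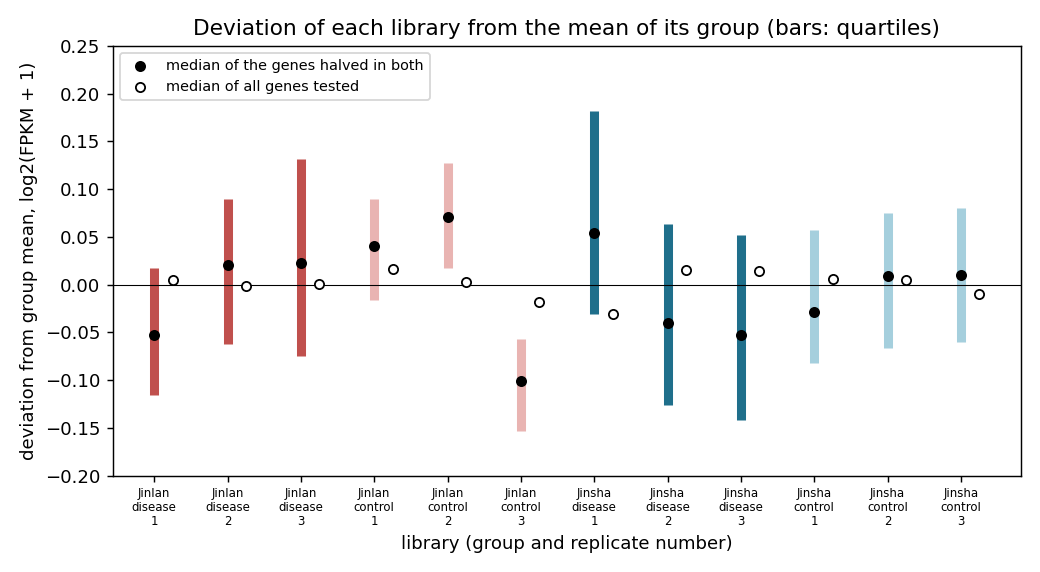
Deviation of each library from the mean of its group on the log2(FPKM + 1) scale, with the median over the 275 genes (filled points), their quartiles (bars) and the median over all genes tested (open points). Jinlan control replicate 3 lies lowest at -0.10, and the medians of all genes tested lie between -0.03 and 0.02.

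Some identifiers of the set stood next to each other. Of the 275 identifiers 257 are numbered within a prefix such as Cg5g and 18 begin with NewGene. Among the 257, 33 had another gene of the set next to them. Next to these 257 in the sorted identifiers stood 310 tested identifiers, counted once for each gene of the set they border, and 36 of them (11.6%) belonged to the set, which makes up 1.61% of all genes tested. The same share was 10% for genes halved in Jinlan only, which make up 2.16% of the genes tested, and 7.84% for genes halved in Jinsha only, which make up 3.50%. The 268 bordering genes outside the set had a median log2 ratio of -0.05 in Jinlan and -0.08 in Jinsha, beside 0.01 and -0.02 over all genes tested. By prefix, the set took between 0.661% (CgUng) and 2.11% (Cg6g) of the genes tested. No genome was used, so identifier order is given as such and not as position.

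Where genes of the set stood at most 5 places apart they were joined into runs, a description chosen after the values were seen. There were 21 runs of 2 or more with 56 genes, and 4 runs of 4 or more with 19 genes. Among the 4 runs of 4 or more, the run with the narrowest range of Jinsha ratios started at Cg2g044400 and held 5 of 6 consecutive identifiers. Its group means ran in identifier order through 70.8, 30.3, 13.6, 5.52 and 3.54 FPKM in diseased and 239, 138, 51.1, 22.9 and 13.1 FPKM in control Jinlan fruit. In Jinsha they were 81.4, 38.5, 16.4, 6.30 and 3.93 FPKM in diseased and 419, 200, 90.2, 34.1 and 21.9 FPKM in control fruit. Levels thus spanned more than an order of magnitude, while the ratios lay between -2.15 and -1.64 in Jinlan and between -2.39 and -2.22 in Jinsha. All 5 were called lower in Jinlan in control fruit, beside 36.8% of all genes tested. The sixth identifier of the stretch, at 2.85 FPKM in diseased and 4.52 FPKM in control Jinlan fruit, had ratios of -0.52 in Jinlan and -0.59 in Jinsha and is outside the set.

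Among the same 4 runs, the run with the deepest ratios started at Cg5g020680 and held 5 of 10 identifiers, with 1 other gene tested. Its diseased group means lay between 1.40 and 74.2 FPKM, and its control group means between 12.7 and 836 FPKM. The ratios lay between -3.60 and -1.76 in Jinlan and between -4.59 and -2.98 in Jinsha. In diseased fruit 3 of the genes were called higher in Jinlan, beside 28.6% of all genes tested. In control fruit all 5 were called lower in Jinlan, beside 36.8%. In a run of 5 that started at Cg5g012550 all 5 genes were called higher in diseased Jinlan than in diseased Jinsha fruit. Over all genes tested 28.6% were. In control fruit 4 were called higher and 1 lower in Jinlan, beside 21.2% and 36.8% of all genes tested. The ratios of this run lay between -1.72 and -1.37 in Jinlan and between -2.24 and -1.50 in Jinsha. Among 6 other tested genes within this run, 4 had ratios between -0.16 and 0.27 in both cultivars, and the other 2 had -0.64 and -1.18 in Jinlan and -0.61 and -0.66 in Jinsha. The abundant run started at Cg7g007780, with 4 genes at 145 to 837 FPKM in diseased and 746 to 2269 FPKM in control group means. Its ratios lay between -2.11 and -1.17 in Jinlan and between -3.31 and -1.83 in Jinsha. Among its 11 identifiers 2 other genes were tested, Cg7g007790 with ratios of -0.30 in Jinlan and 0.27 in Jinsha and Cg7g007800 with ratios of -0.97 in Jinlan and -2.44 in Jinsha. Whether the genes of a run are near-identical copies, between which the authors' counting could split fragments, was not tested, so their separate levels are uncertain.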

How the data were processed

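Expression was deposited by the authors as FPKM in 1 table of 12 libraries, whose column names match the sample titles in the labels. Counts were not used here, so depth is unknown and no counting interval is given; library FPKM sums lay between 550055 and 575107. Per the labels' protocols, total RNA from a Qiagen kit entered a SMARTER mRNA library preparation. For the aligner, the build, the gene models and the FPKM computation, details are not given in sources used here. Of the identifiers, 0 were matched to a name, so gene lists by function could not be described. Zeros are given as listed, since they can be failed estimates. Any pair of libraries had at most 0.00479% identical nonzero values.

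Values were transformed to log2(FPKM + 1), a scale that understates changes of low genes. The test took the 17120 genes that reached 1 FPKM in 3 or more libraries, among them all 275 of the set. A limma model (version 3.58.1, R 4.3.3, mean-variance trend) with 4 group means took all libraries together, with Benjamini-Hochberg adjustment over all genes tested and calls at an adjusted p below 0.05. The fit was tested on simulated data. Figures were drawn with matplotlib 3.10.9.

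The set and the descriptions were chosen with earlier results of these data known. Named genes are at most 2 per description: the deepest ratios, the most unequal ratios in each direction, the highest control levels, the extreme cultivar differences in each condition (called, at least 5 FPKM in the higher group, no overlap) and the genes at each threshold. Alternatives were pseudocounts, filters, scalings, group medians, other fits, a replicate block and leaving out libraries.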

Additional observations from a re-analysis of the deposited data

How the results depend on the processing

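The number of genes in the set depended most on the pseudocount: it was 148 with 5 FPKM added, all among the 275, and 360 with 0.1, which held all 275. Minimum levels of 1 and 10 FPKM gave 281 and 222 genes, group medians 284 (262 shared), and median-ratio scaling, sum scaling and quantile normalization 274, 268 and 268 (273, 268 and 257 shared). Leaving out 1 library at a time gave 268 to 288 genes, and 235 of the 275 were in all 12 of these sets. With both Jinlan libraries numbered 3 left out, a choice made after the data had been seen, it was 302 (271 shared).

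The numbers of genes called between the cultivars stayed within 1.5 times in all alternatives run, higher and lower calls included. Leaving out 1 library at a time gave 179 to 191 calls in diseased fruit and 185 to 208 in control fruit. Replicate numbers did not pair the libraries: deviations of same-numbered Jinlan and Jinsha libraries correlated between -0.0215 and 0.0398, and 1 of 6 Jinlan libraries correlated best with its own number. With the replicate block 192 genes were called in diseased fruit and 200 in control fruit. Median-ratio scaling moved the median of all genes tested by less than 0.1. The 8 genes named for a cultivar difference kept their direction and their call in all alternatives that tested them. For the genes named for their ratios or control levels, the log2 difference, diseased minus control, was followed in each cultivar and alternative. It moved in 20 of these cases, by at least the larger replicate SD of the compared groups, and reversed in none. FPKM without counts gives no measure of depth, which limits the lowest genes most, and 3 libraries per group limit the rest.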
